A study of Mus musculus with 24 samples.

Results

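The elastic fibre and lysyl oxidase genes described here were 10 of the 18368 genes in the deposited expression table and were chosen by symbol. They were Eln, Fbn1, Fbn2, Fbln5, Mfap4, Mfap5, Lox, Loxl1, Loxl2 and Loxl3, and all 10 were present in the table. RNA was sequenced from 24 pieces of full-thickness skin from 12 CD1 mice, an outbred stock, which were 7 weeks of age and in telogen, the resting phase of the hair cycle. Each mouse was wounded at a single site, with 4 mice for the abdomen, 4 for the back and 4 for the cheek. At day 3 the wound was taken with a 2 mm punch, and a second punch took unwounded skin next to it. Mice are numbered 1 to 4 within a site. The 6 groups of 4 libraries were therefore abdomen unwounded, abdomen wound, back unwounded, back wound, cheek unwounded and cheek wound. A cheek received 1 excisional wound, whereas an abdomen or a back received 2. No genetic change was labelled in any group, and all mice were anaesthetised and given an analgesic. The unwounded skin came from wounded animals, and there was no library from an uninjured mouse. The sites were compared because their dermis arises from different embryonic tissues.

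Elastic fibres give skin its recoil. Each fibre has a core of elastin, which fibroblasts secrete as soluble tropoelastin, and a scaffold of microfibrils built mainly from fibrillins. Fibulin-5 and microfibril-associated proteins bring the soluble protein to that scaffold. Lysyl oxidases are secreted, copper-dependent enzymes that convert lysine side chains of elastin and fibrillar collagens into aldehydes, from which the permanent cross-links form.

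Wounds held more Loxl3 and Fbn2 RNA and less Mfap4 RNA than the adjacent unwounded skin, in 12 of 12 mice for each of these genes. Over the 3 sites, Loxl3 rose by 1.99 on the log2 scale (SE 0.11, n = 12 mice, adjusted p = 1.35e-08 by limma), Fbn2 rose by 1.07 (SE 0.0865, adjusted p = 4.53e-07) and Mfap4 fell by 0.94 (SE 0.15, adjusted p = 0.000187). Fbn2 was so low in unwounded skin that only its wound libraries brought it into the test. Smaller rises were found for Loxl1, Fbln5 and Mfap5. For Eln, the gene of elastin itself, the mean wound effect was -0.10 (95% interval -0.33 to 0.12), and for Lox it was 0.10 (95% interval -0.16 to 0.35). Neither of these passed the test. Between sites, cheek wounds held less Eln and Mfap4 RNA and more Lox and Loxl3 RNA than abdomen wounds, and of these 4 differences that of Eln held in every fit at the threshold of 0.05.

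Values were FPKM (fragments scaled to transcript length and to the mapped fragments of the library), so levels could be set side by side per unit of length. Differences are given on the log2(FPKM + 0.5) scale, and a gene passed the test where its p from limma, adjusted over all genes tested by the Benjamini-Hochberg method, was under 0.05. This scale understates changes of genes near or below 0.5 FPKM, such as Fbn2. Site differences were fitted within the 12 unwounded or the 12 wound libraries, and wound effects over the 24 libraries together, each mouse having its own term. An exact two-sided permutation test of 4 libraries against 4, which cannot give a p below 0.0286, stands beside some site differences. The share of all genes whose groups do not overlap is not given here. Statements of overlap therefore describe single genes and do not set them apart from other genes.

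FPKM summed to between 490830 and 608888 per library. The values carry no counts, so the depth behind them and the counting error are unknown. Markers of skin were abundant, with summed FPKM of 4927 to 17550 for 5 keratinocyte genes and 1873 to 5146 for 7 fibroblast genes, while 5 cartilage genes summed to at most 1.86. From unwounded to wound libraries the median sum of the fibroblast markers went from 3833 to 2615, and of its 7 genes 4 were lower and 2 higher over the 3 sites. The medians went from 12870 to 3906 FPKM for skeletal muscle, from 308.2 to 113 for adipocytes, from 6555 to 13210 for keratinocytes, from 183.4 to 407.4 for macrophages, from 13.36 to 1072 for neutrophils, from 63.17 to 103.8 for blood vessel endothelium and from 205.7 to 241.3 for smooth muscle and pericytes. In bulk tissue, fewer cells of a type and less RNA per cell cannot be told apart, and the part of these shifts in the results below was not tested.

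**Figure D1:**
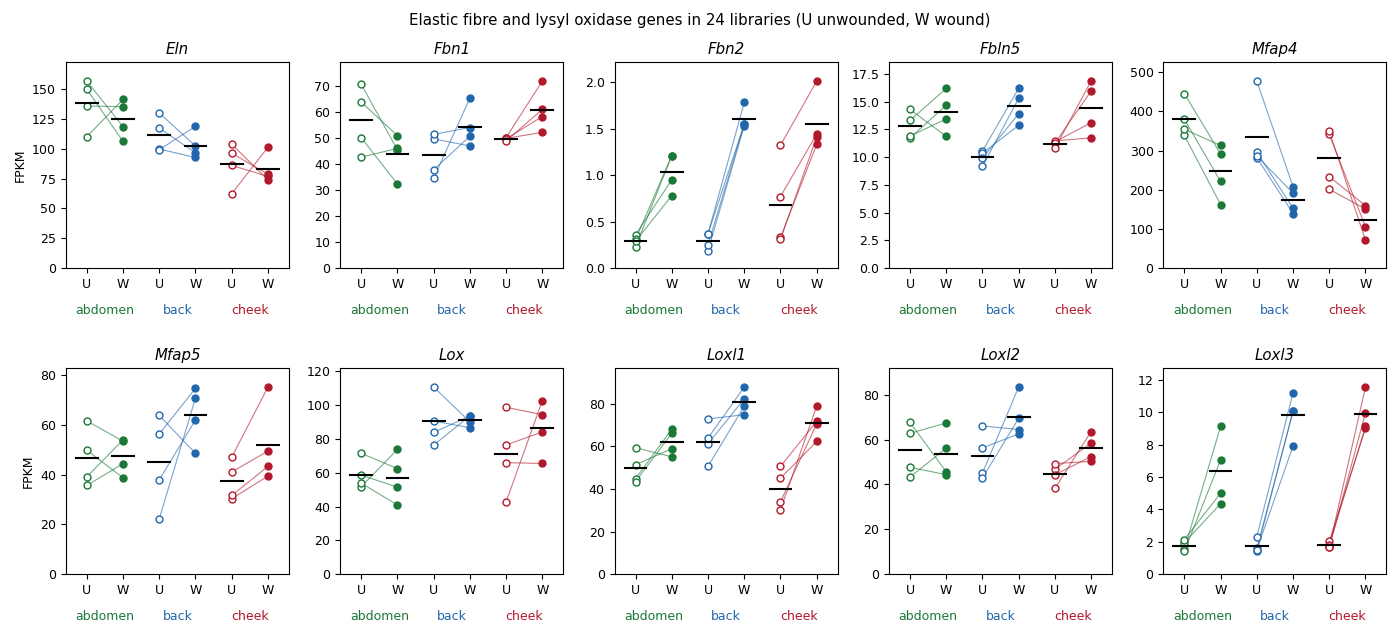
FPKM (vertical axis, linear, from 0) of each of the 10 genes in the 24 libraries, with unwounded libraries as open and wound libraries as filled circles, a thin line joining the 2 libraries of a mouse and a black bar at each group mean. Every line rises for Fbn2 and Loxl3 and falls for Mfap4, whereas the lines for Eln and Lox cross.

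The 10 genes spanned a wide range of levels. Averaged over the 12 unwounded libraries, Mfap4 stood highest at 332.1 ± 79.7 FPKM (SD) and Eln next at 112.2 ± 27.1. Lox followed at 73.4 ± 20.3 FPKM. Loxl2, Loxl1, Fbn1 and Mfap5 lay between 43.0 and 50.9 FPKM, and the ranges of these 4 overlapped. Whether their levels differed was not tested. Fbln5 was at 11.3 ± 1.41 FPKM, Loxl3 at 1.75 ± 0.296 and Fbn2 at 0.425 ± 0.317. The libraries of Mfap4 lay above all those of Eln, those of Fbln5 below all those of Mfap5, and those of Fbn2 below all those of Loxl3, while Eln and Lox overlapped. In wounds the order was the same except that Loxl1 stood above Loxl2 and Mfap5 above Fbn1.

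Eln encodes tropoelastin, the soluble monomer of the fibre core, and lies at chr5:134702595-134747368 in GRCm38, the build used for all positions here. In unwounded abdomen skin of mice 1 to 4 its FPKM was 149.7, 136, 157 and 110.0, and in the wounds of the same mice 106, 135, 118 and 141. On the back, the unwounded libraries held 99.6, 129.9, 117 and 99.1 FPKM and the wounds 92.6, 102, 96.5 and 119. On the cheek, the unwounded libraries held 86.0, 104, 96.2 and 62.3 FPKM and the wounds 76.8, 73.8, 78.6 and 101. At each site 3 mice were lower and 1 was higher in the wound, always mouse 4, and the 2 states overlapped at every site. All cheek libraries lay below all abdomen libraries in unwounded skin and again in wounds, with back means of 111.5 and 102.5 FPKM in between. The cheek against abdomen difference was -0.67 in unwounded skin (SE 0.17, adjusted p = 0.0513, exact p = 0.0286), which missed the threshold, and -0.60 in wounds (SE 0.12, adjusted p = 0.0152, exact p = 0.0286), which passed it. In unwounded skin the difference passed under 5 of 10 other settings, and the adjusted p over these settings ran from 0.00796 to 0.0706. With 1 mouse left out at a time it passed only without abdomen mouse 4 (adjusted p = 0.0253). In the wounds the call held under every setting run at this threshold and with any mouse left out. Fibroblast markers summed to a median of 4556 FPKM in unwounded abdomen and 3612 in unwounded cheek skin, and to 2834 and 2720 in the wounds.

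Fbn1 encodes fibrillin-1, the main fibrillin of adult microfibrils, and lies at chr2:125300594-125506485. The unwounded abdomen libraries of mice 1 to 4 held 42.6, 70.5, 50.1 and 63.7 FPKM, and their wounds 45.9, 45.4, 32.2 and 50.8. The unwounded back held 34.5, 37.8, 49.5 and 51.3 FPKM, and its wounds 65.2, 50.5, 46.8 and 53.9. The unwounded cheek held 50.0, 49.8, 49.6 and 48.7 FPKM, a narrow range, and its wounds 71.7, 52.1, 58.1 and 60.9. Wounds were lower in 3 of 4 abdomen mice, higher in 3 of 4 back mice and higher in 4 of 4 cheek mice, where the groups did not overlap. The wound effect was -0.37 at the abdomen, 0.33 at the back and 0.28 at the cheek (SE 0.15 for each), and none of the 3 passed the test (adjusted p = 0.0805, 0.0947 and 0.166). The limma test of a difference between these effects gave an adjusted p of 0.265 (0.0112 unadjusted), so a difference between sites was not shown for Fbn1. In wounds alone, cheek stood above abdomen by 0.48 (SE 0.15, adjusted p = 0.0532, exact p = 0.0286) with no overlap.

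Fbn2 encodes fibrillin-2, a fibrillin made mostly during development, and was the lowest of the 10 genes. Mice 1 to 4 held 0.23, 0.36, 0.31 and 0.29 FPKM in unwounded abdomen skin and 1.21, 0.95, 1.21 and 0.78 in the wounds. For the back the values were 0.19, 0.25, 0.37 and 0.37 unwounded and 1.53, 1.55, 1.78 and 1.55 in wounds. For the cheek they were 0.33, 0.31, 0.77 and 1.32 unwounded and 1.33, 1.41, 1.44 and 2.01 in wounds. At every site all wound libraries lay above all unwounded libraries, and the ratio of wound to unwounded FPKM within a mouse ran from 1.52 to 8.05. The wound effect was 0.94 at the abdomen (adjusted p = 0.000707), 1.41 at the back (adjusted p = 1.63e-05) and 0.86 at the cheek (adjusted p = 0.000847, SE 0.15 for each). Only cheek mice 3 and 4 reached 0.5 FPKM in unwounded skin, so Fbn2 entered the wound test through its wound libraries. Entry to the test and the direction of the effect are therefore linked. These effects passed under all other settings, one without a filter among them, and without any mouse, although their sizes moved with the amount added to FPKM. For the mean of the sites that amount alone took the effect from 0.76 to 1.63. In unwounded skin Fbn2 reached 0.5 FPKM in too few libraries to enter the site tests, and cheek mice 3 and 4 stood above all other unwounded libraries. The ratio of Fbn1 to Fbn2 FPKM averaged 190 ± 24.1 (SD, n = 4), 151 ± 21.4 and 103 ± 62.0 in unwounded abdomen, back and cheek, and 44.4 ± 16.3, 34.1 ± 6.72 and 40.4 ± 9.95 in the wounds.

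Mfap4 encodes microfibril-associated glycoprotein 4, which binds tropoelastin and fibrillin-1, and lies at chr11:61485431-61488708. The unwounded abdomen libraries held 339, 380.0, 445 and 355 FPKM and the wounds 162, 221, 291 and 313. On the back the values were 296, 477, 282 and 286 unwounded and 153, 208, 139 and 192 in wounds. On the cheek they were 233, 341, 349 and 201 unwounded and 159.6, 105, 71.6 and 151 in wounds. All 12 mice were lower in the wound, at 0.205 to 0.883 times the unwounded level, and the states did not overlap at any site. The test was passed at the back (-0.94, SE 0.26, adjusted p = 0.012) and the cheek (-1.23, SE 0.26, adjusted p = 0.00344) but not at the abdomen (-0.66, SE 0.26, adjusted p = 0.0713). By limma the effects were not shown to differ between sites (adjusted p = 0.638, 0.328 unadjusted). Without back mouse 2, whose unwounded library was the highest of all, the back effect was -0.85 with an adjusted p of 0.0548. In wounds the cheek lay below the abdomen by 1.04 (SE 0.27, adjusted p = 0.0354), with no overlap between the 4 and 4 libraries. With the replicate number as a block the adjusted p of that difference was 0.0507, and it was over 0.05 when any 1 of 4 mice was left out. Adipocyte and fibroblast marker sums were lower in wounds too, as given above.

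Mfap5 encodes microfibril-associated glycoprotein 2, a small protein of the microfibril surface, at chr6:122513584-122529290. Its group means were 46.5, 45.1 and 37.5 FPKM in unwounded abdomen, back and cheek and 47.7, 64.0 and 51.9 in the wounds, with single libraries between 22.2 and 75.2. Wounds were higher in 9 of 12 mice, and the states overlapped at each site. The mean wound effect of 0.36 (SE 0.14, adjusted p = 0.0425) passed narrowly. It no longer passed under 3 of the other settings, nor when any 1 of 9 mice was left out, with adjusted p up to 0.12.

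Fbln5 encodes fibulin-5, which binds tropoelastin, cell integrins and lysyl oxidase-like 1, and lies at chr12:101746565-101819119. Unwounded abdomen libraries held 11.7, 13.3, 14.3 and 11.9 FPKM and their wounds 14.7, 16.2, 11.9 and 13.4. The back went from 10.5, 9.16, 10.3 and 9.89 FPKM unwounded to 16.2, 15.3, 12.9 and 13.9 in the wounds of the same mice. The cheek went from 11.4, 11.5, 11.3 and 10.8 to 13.1, 11.7, 15.9 and 16.9 FPKM. Wounds were higher in 11 of 12 mice, the exception being abdomen mouse 3, and the states did not overlap at the back or the cheek. The rise was 0.52 at the back (SE 0.11, adjusted p = 0.00284) and 0.33 at the cheek (SE 0.11, adjusted p = 0.0367), with 0.12 at the abdomen (adjusted p = 0.426). The cheek call did not hold under 4 other settings, including rescaling to a common sum, nor without any 1 of 3 mice. In unwounded skin, in FPKM as deposited, the 3 sites did not overlap, with the abdomen highest, the cheek in the middle and the back lowest, and each pair had an exact p of 0.0286. The largest of these differences, back against abdomen, was -0.34 (SE 0.0888, adjusted p = 0.0615) and missed the threshold over all genes. This order depended on scaling. Median-ratio scaling took that difference to -0.21 (adjusted p = 0.224), and the cheek minus back difference went from 0.16 (adjusted p = 0.304) to 0.02 with it (adjusted p = 0.931) and to 0.0092 with quantile normalization (adjusted p = 0.979). In wounds the site means lay between 14 and 14.6 FPKM.

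The 5 lysyl oxidases share a catalytic domain with a copper-binding site in which histidines hold the metal. The coding bases of that site are shown for the genes whose positions allow it, because the near identity of the sites within a subgroup bears on whether reads could be split between genes. Each run of 33 bases covers the 4 histidine codons, in capitals, reads 5′ to 3′ along the transcript (GENCODE M21), and is interrupted by 1 intron in the genome.
Loxl1, exons 3 and 4 of 7, chr9:58293720-58294381, minus strand: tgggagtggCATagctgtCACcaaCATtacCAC
Loxl2, exons 10 and 11 of 14, chr14:69682316-69689037, plus strand: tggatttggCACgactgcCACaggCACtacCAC
Loxl3, exons 10 and 11 of 14, chr6:83049995-83050125, plus strand: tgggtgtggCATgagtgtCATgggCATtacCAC
Loxl4, exons 11 and 12 of 15, chr19:42598807-42599899, minus strand: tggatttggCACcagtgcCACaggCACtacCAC
Loxl2 and Loxl4 were equal at 31 of the 33 bases, while Loxl3 matched Loxl1, Loxl2 and Loxl4 at 25 bases each. Lox matched Loxl1 at 32 and Loxl2 at 23. Over the whole annotated protein-coding transcripts of the 10 genes and Loxl4, 1 of the 55 pairs of genes shared any stretch of 31 bases. That pair was Lox and Loxl1, with 2 such stretches, and no stretch of that length was shared with Loxl3 or Fbn2.

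Lox encodes lysyl oxidase, the founding enzyme of the family, which acts on both elastin and collagens. Abdomen mice 1 to 4 held 51.7, 58.6, 53.9 and 71.5 FPKM in unwounded skin and 73.8, 51.5, 41.0 and 62.5 in wounds. The back held 83.9, 76.3, 90.6 and 111 FPKM unwounded and 93.6, 93.7, 86.7 and 90.2 in wounds. The cheek held 98.8, 76.5, 66.0 and 42.7 FPKM unwounded and 94.4, 84.1, 65.5 and 103 in wounds. Wounds were higher in 5 mice and lower in 7, and the states overlapped at all sites. Back libraries lay above abdomen libraries without overlap in both states, by 0.61 in unwounded skin (SE 0.21, adjusted p = 0.135, exact p = 0.0286) and by 0.70 in wounds (SE 0.17, adjusted p = 0.0656, exact p = 0.0286). Neither passed over all genes, although the wound difference did so without abdomen mouse 1 (adjusted p = 0.0305). Cheek wounds stood above abdomen wounds by 0.61 (SE 0.17, adjusted p = 0.0415), with overlap (exact p = 0.0571). That call did not hold under 3 other settings, nor without any 1 of 9 mice, with adjusted p up to 0.10.

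Loxl1 encodes lysyl oxidase-like 1, an enzyme tied to elastin through fibulin-5, at chr9:58287723-58313212. Unwounded and wound libraries held 44.9, 51.4, 59.3 and 43.5 and 68.0, 58.9, 55.1 and 66.1 FPKM at the abdomen. At the back they held 50.7, 61.2, 72.8 and 63.9 and 78.8, 82.3, 74.8 and 87.8 FPKM. At the cheek they held 50.6, 45.1, 33.9 and 30.2 and 71.7, 62.3, 70.5 and 78.9 FPKM. The wound was higher in 11 of 12 mice, and all back and cheek wounds lay above the unwounded libraries of their site. Over the 3 sites Loxl1 rose by 0.52 (SE 0.0908, adjusted p = 0.000301). The cheek rise of 0.84 (SE 0.16, adjusted p = 0.00138) passed alone, while the back gave 0.39 (adjusted p = 0.0599) and the abdomen 0.32 (adjusted p = 0.134). A difference between the 3 effects was not shown (limma, adjusted p = 0.412, 0.0708 unadjusted). By limma the cheek rise exceeded the abdomen effect by 0.52 (adjusted p = 0.392) and the back effect by 0.46 (adjusted p = 0.731), and neither passed. The unwounded cheek was also the lowest group, below the unwounded back by 0.65 with no overlap (SE 0.17, adjusted p = 0.0875, exact p = 0.0286). The authors, with a different test, reported less Loxl1 in unwounded cheek skin. That test was not repeated here. Within groups, the summed level of the fibroblast markers varied from library to library with an r of 0.727 to Loxl1 (n = 24 libraries, group means taken away). That sum was lower in the wounds than in unwounded skin. At the cheek, 1 of the 7 markers passed as higher and 2 as lower in wounds. The part of fibroblasts in the Loxl1 values was not tested.

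Loxl2 encodes lysyl oxidase-like 2, an enzyme that cross-links collagen IV of basement membranes, at chr14:69608692-69695834. Its group means were 55.4, 52.6 and 44.7 FPKM in unwounded abdomen, back and cheek and 53.4, 70.0 and 56.2 in the wounds, with single libraries between 38.3 and 83.4. The wound was higher in 9 of 12 mice. The mean effect of 0.23 (SE 0.097, adjusted p = 0.051) missed the threshold and passed it without the term for each mouse (adjusted p = 0.0338) and without any 1 of 4 mice.

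Loxl3 encodes lysyl oxidase-like 3, an enzyme needed in development for the palate and the spine, and lies at chr6:83034205-83052566. Unwounded abdomen libraries held 1.53, 1.95, 2.14 and 1.41 FPKM and the wounds 9.13, 4.35, 5.0 and 7.06. The unwounded back held 1.44, 1.59, 2.32 and 1.51 FPKM and its wounds 10.1, 10.1, 11.2 and 7.91. The unwounded cheek held 2.04, 1.66, 1.79 and 1.66 FPKM and its wounds 9.0, 11.6, 9.13 and 9.96. The lowest wound library of Loxl3, at 4.35 FPKM, stood above its highest unwounded library of any site, at 2.32 FPKM. Within a mouse the wound held 2.23 to 6.99 times the unwounded level. The rise was 1.57 at the abdomen (SE 0.19, adjusted p = 9.46e-05), 2.23 at the back (SE 0.19, adjusted p = 2.51e-06) and 2.18 at the cheek (SE 0.19, adjusted p = 3.68e-06), and all 3 passed under every other setting and without any mouse. A difference between the 3 rises was not shown (limma, adjusted p = 0.384, 0.0486 unadjusted). By limma the back rise exceeded that of the abdomen by 0.66 (adjusted p = 0.272) and the cheek rise by 0.61 (adjusted p = 0.395), and neither passed. In wounds the cheek stood above the abdomen by 0.64 (SE 0.19, adjusted p = 0.0498), with overlap (exact p = 0.0857), and this call did not hold under 6 other settings or in 11 of 12 fits without a mouse. The neutrophil and macrophage marker sums rose in the same wounds.

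**Figure D2:**
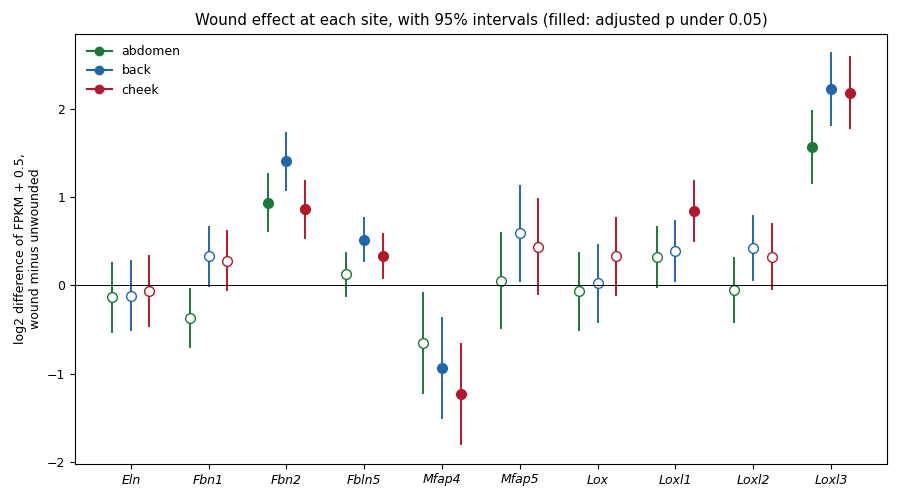
Wound minus unwounded difference of log2(FPKM + 0.5) (vertical axis) for each gene at the abdomen (green), back (blue) and cheek (red), with points for the estimate over 4 mice, lines for 95% intervals and filled points where the adjusted p was under 0.05. Loxl3 and Fbn2 lie above 0 at all 3 sites, Mfap4 lies below 0, and the 3 intervals of Eln and of Lox all include 0.

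As shares of the summed FPKM of the 5 lysyl oxidase genes, Lox, Loxl1 and Loxl2 together made up nearly all of the family in every group. Lox had the largest mean share in unwounded skin, with 34.2% ± 3.27 (SD, n = 4) at the abdomen, 42.2% ± 3.84 at the back and 42.6% ± 4.84 at the cheek. In wounds its share was 31% ± 3.07, 35.4% ± 0.568 and 37.7% ± 3.43, and at the abdomen Loxl1 stood above it with 34.3% ± 2.54. Loxl3 held 1.02%, 0.8% and 1.13% of the family in unwounded abdomen, back and cheek and 3.44%, 3.83% and 4.39% in wounds. Loxl4, the family member outside the 10 genes, held 3.92%, 3.64% and 3.87% and then 2.08%, 2.05% and 2.18%. Its FPKM was lower in the wound in 11 of 12 mice, and over the 3 sites it fell by 0.53 (SE 0.12, adjusted p = 0.00254). The ranges of the 2 genes thus changed places, with Loxl4 above Loxl3 in every group of unwounded skin and Loxl3 above Loxl4 in every group of wounds. Summed over the 5 genes, the level was 172.5 ± 17.9, 214.6 ± 30.2 and 163.7 ± 37.5 FPKM in unwounded abdomen, back and cheek and 182.7 ± 30.9, 257 ± 11.7 and 228.7 ± 27.8 FPKM in wounds.

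**Figure D3:**
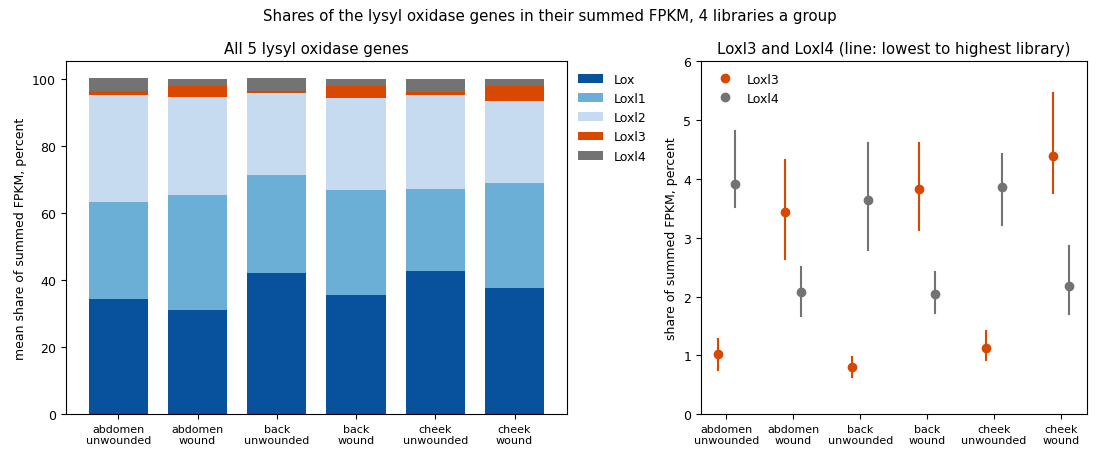
Left, mean share (percent) of each of the 5 lysyl oxidase genes in their summed FPKM, stacked for each group of 4 libraries; right, the shares of Loxl3 (orange) and Loxl4 (grey) with points at the mean and lines from the lowest to the highest library. Loxl3 goes from 0.8% to 1.13% in unwounded skin to between 3.44% and 4.39% in wounds, and Loxl4 goes the other way.

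Counted together, the genes passed the wound test about as often as genes in general. At the abdomen 2 of the 10 passed, both higher, where 32.9% of the 14423 genes tested passed (16.9% higher and 16% lower). At the back 4 passed, 3 higher and 1 lower, against 45.9% of all genes (28% higher and 17.9% lower). At the cheek 5 passed, 4 higher and 1 lower, against 36.6% (19.7% higher and 16.9% lower). For the mean of the 3 sites 6 passed, 5 higher and 1 lower, against 62.7% (33.3% higher and 29.4% lower). These shares are near the background, so the counts say nothing particular about the set. At a threshold of 0.001 the count was 2 at the back (14.4% of all genes) and 2 at the cheek (8.69%). All of these counts include Fbn2, whose entry to the test through its wound libraries is linked to its direction. The median wound effect over the 10 genes was 0.28, against 0.02 over all genes. Without back mouse 3 the count at the back was 8, the added genes being Fbn1, Mfap5, Loxl1 and Loxl2. The share of all genes that passed in that fit is not given here, so this count is not read as a result about the set. The unwounded library of back mouse 3 held the highest unwounded back values of Mfap5, Loxl1 and Loxl2, and also of Loxl3, which passed with all mice. For Fbn1 the highest was mouse 4, at 51.28 FPKM against 49.55 in mouse 3. Of the genes higher or lower at the abdomen, 51.4% were higher, a share that was 34% after rescaling all libraries to a common sum and 40.4% after quantile normalization; at the back 61.1% became 47.2% and 44.9%, at the cheek 53.9% became 43.2% after quantile normalization, and over the 3 sites 53% became 42.3% and 41.9%.

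By limma, 0 of the 10 genes passed the test of a wound effect that differed between sites, which 0.0208% of all genes passed. Unadjusted p was under 0.05 for Fbn1 (0.0112), Fbn2 (0.0479) and Loxl3 (0.0486), as for 12.9% of all genes. For the pairwise differences, 0 members passed for back minus abdomen, cheek minus abdomen or cheek minus back, against 0%, 0.00693% and 0.0277% of all genes. At an unadjusted p under 0.05 there were 4, 3 and 1, against 15.2%, 11.9% and 7.07% of all genes. The back minus abdomen difference of wound effects had a median of 0.43 over the 10 genes and 0.09 over all genes, and it was below 0 for Mfap4 alone. The abdomen wounds had a median macrophage marker sum of 320.4 FPKM, against 433.9 for back and 405.9 for cheek wounds, and whether this moved the members was not tested.

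Between sites in unwounded skin, 0 of the 9 genes tested passed, by limma, for back against abdomen (2.67% of 13956 genes passed), cheek against abdomen (2.57%) or cheek against back (1.05%). At an unadjusted p under 0.05 there were 3 genes for back against abdomen (Fbn1, Fbln5 and Lox), 2 for cheek against abdomen (Eln and Mfap4) and 2 for cheek against back (Eln and Loxl1), where 22%, 19% and 21.6% of all genes were under it. A gene that did not pass was not shown to be equal between sites, and for Loxl1 the authors reported a difference, as given above. The median over all genes was not taken away from these differences. It was -0.12 for the back minus the abdomen and 0.14 for the cheek minus the back, and median-ratio scaling took it to 0.0041 and 0.01. Of all genes that passed, the share that was higher went under that scaling from 19.8% to 38.3% for back against abdomen, from 52% to 37.4% for cheek against abdomen and from 53.1% to 24.2% for cheek against back. Skeletal muscle markers summed to between 434.1 and 13420 FPKM in unwounded abdomen, 11970 and 18890 in back and 9727 and 19570 in cheek skin.

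Between wounds, by limma, 0 of 10 genes passed for back against abdomen (1.27% of 14023 genes), 4 for cheek against abdomen (10.8%) and 0 for cheek against back (2.5%). At an unadjusted p under 0.05 there were 6, 6 and 2, against 16.5%, 31.6% and 26.1% of all genes. The 4 were Eln and Mfap4, lower in the cheek, and Lox and Loxl3, higher in the cheek. Among all genes 7.52% were higher and 3.32% lower in that comparison. The count of 4 rose to 6 after rescaling to a common sum, which added Fbn1 (0.56, adjusted p = 0.0447) and Fbn2 (0.54, adjusted p = 0.0376), both higher in the cheek. With the replicate number as a block it was 3, namely Eln, Lox and Fbn1 (adjusted p = 0.0367). It fell to 2 without a filter on low values and under median-ratio scaling, to 1 without abdomen mouse 3 or cheek mouse 2, and to 0 at a threshold of 0.001, which 0.193% of all genes passed. Eln passed in all of the fits at 0.05. Of all genes tested, 1054 were higher and 465 lower in the main fit, and 1712 and 369 after rescaling to a common sum. For back against abdomen the count of 0 became 3 without abdomen mouse 1, by way of Lox, Loxl1 and Loxl3, all higher in the back. The share of all genes in that fit is not given here. Fibroblast marker sums in wounds had medians of 2834 FPKM at the abdomen and 2720 at the cheek, and skeletal muscle sums of 2876 and 5377. Of the genes higher or lower in cheek than in abdomen wounds, 69.4% were higher, against 82.3%, 47.4% and 51.5% after rescaling to a common sum, median-ratio scaling and quantile normalization. For cheek against back wounds 76.1% were higher, against 92.2%, 40.7% and 50.6%, and for back against abdomen wounds 39.9%, against 32.9%, 50% and 44.7%.

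**Figure D4:**
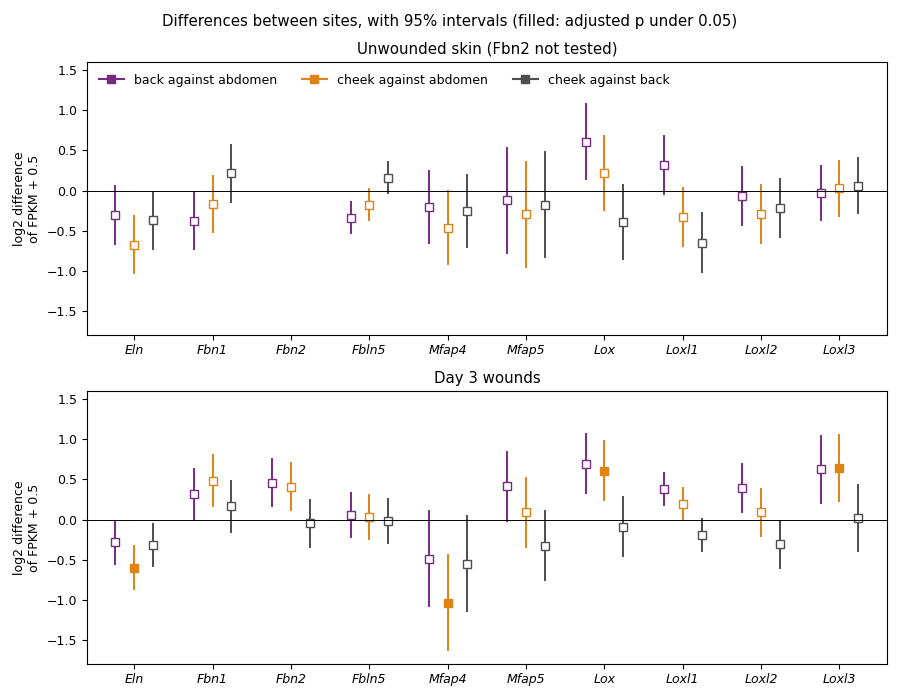
Differences of log2(FPKM + 0.5) between sites (vertical axis) in unwounded skin (top) and day 3 wounds (bottom), for back against abdomen (purple), cheek against abdomen (orange) and cheek against back (grey), with 95% intervals and filled squares where the adjusted p was under 0.05. The filled squares are Eln and Mfap4 below 0 and Lox and Loxl3 above 0, all for cheek against abdomen wounds.

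Other genes of the pathway moved in both directions in wounds. Of 16 further genes of elastic fibre assembly, 5 were higher and 6 lower over the 3 sites (62.7% of all genes passed), with a median of -0.10. Efemp2, which encodes fibulin-4, the partner that brings lysyl oxidase to tropoelastin, rose at each site, by 1.27, 2.14 and 1.75 at abdomen, back and cheek (adjusted p = 4.95e-05, 4.76e-07 and 2.33e-06). Its mean FPKM went from 22.1, 22.8 and 19.7 in unwounded skin to 53.9, 99.7 and 68.8 in wounds. Emilin1, an elastin interface protein, rose by 1.09, 1.54 and 1.42 (adjusted p = 3.21e-05, 9.23e-07 and 2.15e-06), from means of 5.96 to 7.42 FPKM to means of 16.5 to 18.8. Fbln2, which encodes fibulin-2, a binder of fibrillin and tropoelastin, rose by 0.86, 1.36 and 1.36 (adjusted p = 0.00286, 6.12e-05 and 8.81e-05). Averaged over the sites the 3 rises were 1.72, 1.35 and 1.19. The 6 lower genes were Ltbp4, Adamtsl4, Adamtsl2, Ltbp3, Adamts17 and Thsd4, with mean effects from -0.86 to -0.26. Ltbp4, which encodes a latent TGF-beta binding protein that takes part in elastic fibre assembly, fell by 0.66, 1.08 and 0.84 at abdomen, back and cheek (adjusted p = 0.00481, 0.000101 and 0.000838). Its mean FPKM went from 38.0, 39.2 and 39.8 in unwounded skin to 24.0, 17.9 and 22.3 in wounds. In wounds Efemp2 (0.89, adjusted p = 0.0252), Emilin2 (0.79, adjusted p = 0.0424) and Ltbp2 (0.80, adjusted p = 0.0441) were higher at the back than at the abdomen, and Ltbp2 (0.68, adjusted p = 0.029) and Efemp1 (0.64, adjusted p = 0.0346) were higher at the cheek than at the abdomen. In unwounded skin 0 of the 16 passed in any site comparison by limma. At an unadjusted p under 0.05 there were 4 for back against abdomen (22% of all genes), 0 for cheek against abdomen (19%) and 5 for cheek against back (21.6%).

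Among 12 substrates and activators of the lysyl oxidases, Loxl4 included, 4 were higher and 4 lower over the 3 sites (33.3% and 29.4% of all genes), with a median of 0.16. Col1a2 and Col1a1, the chains of collagen I and the most abundant substrate in skin, were lower in wounds. Col1a2 fell at abdomen, back and cheek by 0.94, 1.26 and 1.06 (adjusted p = 0.00566, 0.000479 and 0.00209), and Col1a1 fell by 0.68, 1.00 and 0.84 (adjusted p = 0.0247, 0.00197 and 0.00734). At the abdomen Loxl4 fell by 0.77 (adjusted p = 0.017). Bmp1, the protease that releases the lysyl oxidase propeptide, rose by 0.48 at the back (adjusted p = 0.0184) and 0.65 at the cheek (adjusted p = 0.00476). Postn, the gene of periostin, which helps to bring that protease to its substrates, rose by 0.79 at the cheek (adjusted p = 0.00263). Tll1, a related protease, was higher in cheek than in abdomen wounds by 0.68 (adjusted p = 0.0339).

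Of 8 proteases that degrade elastin, 7 entered the test and Elane, the neutrophil elastase, did not. At each site 5 of the 7 were higher in wounds (16.9%, 28% and 19.7% of all genes were higher at abdomen, back and cheek), while Mmp2 and Ctsk did not pass. Over the 3 sites 5 were higher and 1, Ctsk, was lower (33.3% and 29.4% of all genes), with a median of 1.02. Ctss, a cathepsin of macrophages, rose by 1.80, 2.53 and 2.37 at abdomen, back and cheek (adjusted p = 7.12e-05, 2.17e-06 and 4.53e-06). Mmp9 rose by 1.23, 1.63 and 2.27 (adjusted p = 0.000493, 2.87e-05 and 3.19e-06), and Ctsb rose by 0.85, 1.17 and 1.04 (adjusted p = 0.000278, 1.14e-05 and 3.97e-05). The 4 macrophage markers and the 4 neutrophil markers were also all higher over the 3 sites, and their part in the rise of the proteases was not tested.

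**Figure D5:**
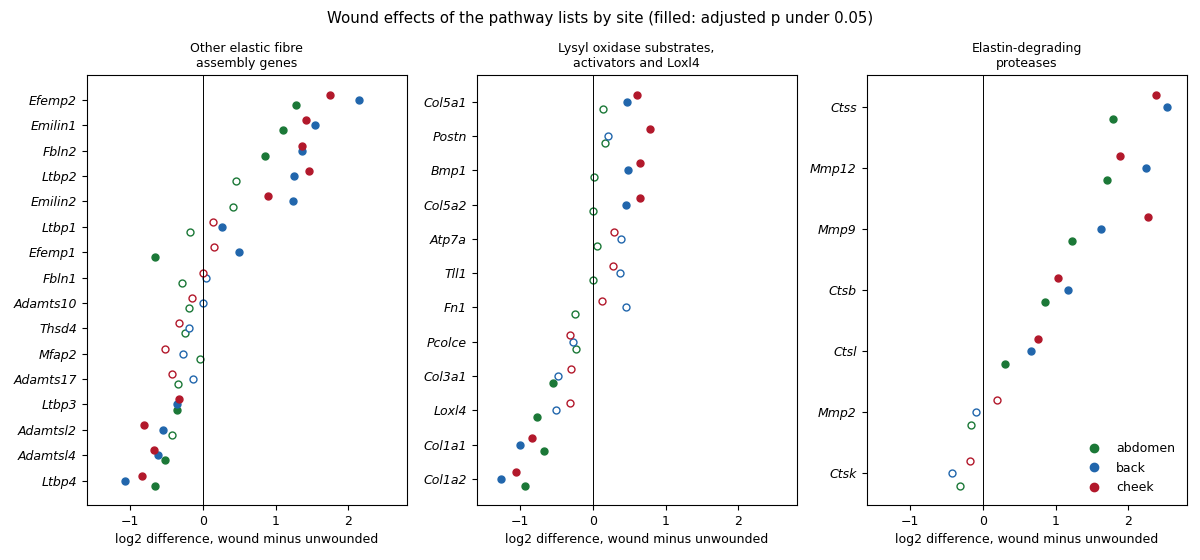
Wound minus unwounded differences of log2(FPKM + 0.5) (horizontal axis) at the abdomen (green), back (blue) and cheek (red) for the genes of 3 pathway lists, ordered within each list by the mean of the sites, with filled points where the adjusted p was under 0.05. Efemp2, Emilin1 and Fbln2 head the assembly genes, Col1a1 and Col1a2 stand lowest among the substrates, and 5 of 7 proteases lie right of 0 at every site.

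Within groups, some of the genes varied together from library to library. With group means taken away, Pearson's r over the 24 libraries was 0.827 for Fbn1 and Loxl2, 0.652 for Mfap5 and Loxl1, 0.626 for Eln and Mfap4, 0.622 for Lox and Loxl2 and 0.601 for Lox and Loxl1, while for Eln and Fbn1 it was -0.10. These are descriptions without a test, since the 2 libraries of a mouse share an animal and all genes of a library share its tissue and scaling. Fibroblast markers had an r of 0.593 with Eln, 0.526 with Fbn1, 0.554 with Lox and 0.563 with Loxl2, but -0.0133 with Loxl3 and -0.504 with Fbn2. The genes outside the set most like Eln by this measure were Pdia5 (0.817), Vkorc1 (0.80), Ppp1r14a (0.798), Irx1 (0.791) and Map1lc3b (0.783). Without taking group means away they were Acox3 (0.853), Chst12 (0.845), Serpina3b (0.84), Ppp1r14a (0.835) and Serpina3j (0.827). Most like Lox were Aldh1l2 (0.815), Olfml1 (0.811), Fam114a1 (0.81), Pam (0.78) and Pde3b (0.78), and without taking group means away Nox4 (0.779), Mapre2 (0.753), Fkbp14 (0.753), B3galnt1 (0.75) and Tll1 (0.741).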

How the data were processed

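Skin RNA was measured in 24 libraries, placed by the labels in site, state and mouse; 0 per-sample columns were left unused. For the authors, a provider mapped the reads to GRCm38 and quantified genes. The submitters' processing notes name HISAT2, Bowtie2 2.2.5 and RSEM 1.2.12. The FPKM were deposited per library, and no scaling between libraries is stated. A second table, holding the authors' own DESeq2 comparisons (log2 fold changes and adjusted p-values), was not used.

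To each FPKM 0.5 was added before taking log2. limma 3.58.1 (statmod 1.5.0, R 4.3.3) was run with trended, robust moderation on genes reaching 0.5 FPKM in 4 or more libraries, and adjustment (Benjamini-Hochberg, threshold 0.05) covered every gene tested. Site comparisons had no block. Wound effects had a term for each mouse, because both libraries of a mouse came from 1 animal. Deviations from group means had a mean r of 0.322, 0.348 and 0.281 within mice at abdomen, back and cheek (lowest -0.0299, at the abdomen). Between mice of a site it was -0.108, -0.116 and -0.0958. These second values are not independent of the first, since the deviations of the 4 libraries of a group sum to 0. No 2 libraries were duplicates, with at most 11.4% of genes at equal values. The code of the fits was run on simulated data. The simulated libraries of a mouse shared no effect, so that run did not test the term for each mouse.

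The 10 genes and all lists were chosen with earlier results of these data known. Named are those 10, at most 3 genes of each pathway list with the smallest adjusted p per comparison, and the 5 most like Eln and Lox by r. Ctsk, Mmp2, Elane, the 6 lower assembly genes and Col1a1 at the cheek were named after their values were seen. Positions are from RefSeq (GRCm38.p6) and transcripts from GENCODE M21. Positions and sequences of Lox and Fbn2 are not reported here.

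Alternatives were an added 0.1 or 1, no filter or 1 FPKM, TPM, median-ratio and quantile scaling, plain moderation, a threshold of 0.001, other blocks or library sets, and each mouse left out.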

Additional observations from a re-analysis of the deposited data

Results flagged for a closer look

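In 4 of 60 groups of 4 libraries, the highest library stood apart from the other 3 by more than Dixon's 95% critical value for the gap over the range, which chance exceeds in about 1 group of 20. In back wounds, Fbn2 was at 1.78 FPKM in mouse 3, with 1.53, 1.55 and 1.55 in the others. In cheek wounds, Fbn2 was at 2.01 FPKM in mouse 4, with 1.33, 1.41 and 1.44 in the others, and this mouse also had the highest unwounded cheek value, 1.32 FPKM. In unwounded back skin, Mfap4 was at 477.3 FPKM in mouse 2, with 282.2, 286.4 and 295.9 in the others. In unwounded back skin, Loxl3 was at 2.32 FPKM in mouse 3, with 1.44, 1.51 and 1.59 in the others, and the lowest back wound value was 7.91 FPKM.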

How the results depend on the processing

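No value that passed the test changed direction in any alternative. Of the values of single genes under the alternatives, 2335 stayed on the same side of the threshold, 42 came to pass it and 64 no longer passed. Some values that did not pass changed sign. For Fbn1 the mean wound effect went from 0.08 to as low as -0.0035, and for Loxl3 the unwounded back minus abdomen difference went from -0.03 to as high as 0.07. The values of the test between the 3 wound effects have no direction. Where no share of all genes stands beside a count below, its change is not read as a result about the set. The counts of genes that passed that changed by 1.5 times or more were these. For cheek against abdomen in unwounded skin, 0 became 1 (Eln) with a filter of 1 FPKM, TPM, quantile normalization, the replicate block, and 24 libraries fitted in 6 groups. The last of these also gave 1 for back against abdomen (Fbln5) and 1 for cheek against back (Loxl1). For cheek against abdomen wounds, 4 became 6 with TPM (Fbn1 and Fbn2 added), 2 with no filter and with median-ratio scaling, and 0 at a threshold of 0.001. The replicate block gave 3 there, with Mfap4 (adjusted p = 0.0507) and Loxl3 (0.0837) no longer passing and Fbn1 (0.0367) added. The abdomen wound count of 2 became 4 with TPM and with quantile normalization, and 3 with the 8 libraries of the site alone. Of all genes there, 2437 higher and 2304 lower became 1775 and 3440 with TPM and 2127 and 3141 with quantile normalization. At 0.001 the back count of 4 and the cheek count of 5 each became 2.

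With 1 mouse left out, cheek against abdomen unwounded ranged from 0 to 1 (1 without abdomen mouse 4) and back against abdomen wounds from 0 to 3 (3 without abdomen mouse 1). Cheek against abdomen wounds ranged from 1 to 4, with 1 without abdomen mouse 3 or cheek mouse 2, and 2 without abdomen mouse 2, back mouse 2, 3 or 4, or cheek mouse 1, 3 or 4. Wound effects ranged from 2 to 3 at the abdomen, 3 to 8 at the back (8 without back mouse 3), 4 to 5 at the cheek and 5 to 7 for the mean. The other counts stayed at 0. The shares of all genes that passed in the fits without a mouse are not set beside these counts, so the changes are not read as results about the set. The cause of these changes was not tested.

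Mice with the same number at different sites are different animals, and their deviations had a mean r of -0.0273 in unwounded and -0.0507 in wound libraries. The replicate block moved no other count by 1.5 times. Leaving out the term for each mouse took the back wound count from 4 to 6 and no other count by 1.5 times. The share of all genes that passed without that term is not given here, so the count of 6 is not read as a result about the set. FPKM hold no counts, so counting error is unknown. SEs of wound effects at single sites were 0.11 to 0.26 on the log2 scale.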
